A study of Mus musculus with 16 samples.

Results

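The genes described here are 57 mouse genes of the DNA damage response and of DNA repair, taken by their symbols, and all 57 were among the 24421 gene symbols counted in the series. They were sorted into 10 pathways, which are checkpoint kinases, adaptors at broken chromatin, the p53 core, homologous recombination, RecQ helicases, non-homologous end joining, base excision and single-strand break repair, nucleotide excision repair, mismatch repair and the Fanconi anaemia pathway. The cells were myeloid-derived suppressor cells (MDSCs), immature myeloid cells that accumulate in tumor-bearing hosts, of the monocytic (M-MDSC) and the granulocytic (G-MDSC) subset. Both subsets were sorted from the spleens of 8 C57BL/6 mice, 4 wild type (WT) and 4 Nlrp3-/-, so that there were 4 groups of 4 libraries, 16 in all, and each library was the RNA of 1 mouse. Every mouse carried a subcutaneous tumor of B16.F10 cells, a C57BL/6 melanoma line, and no tumor-free mouse was analysed here. In the Nlrp3-/- strain Nlrp3 carries an EGFP cassette and an SV40 poly(A) signal at its start codon in the germline, so the gene was disrupted in all cells of the mouse and not in MDSCs alone. Mice were sex- and age-matched and by default aged 6 to 12 weeks, and the default time of analysis was day 15 after tumor induction. The day, sex and age of the sequenced mice were not given in the sources used here.

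Cells mend different lesions of DNA by different routes. Single altered bases and nicks are handled by base excision repair, bulky lesions such as those of ultraviolet light by nucleotide excision repair, and replication errors by mismatch repair, while a break of both strands is either rejoined directly by non-homologous end joining or copied from the sister chromatid by homologous recombination. The kinases Atm and Atr, with Chek1 and Chek2, relay the presence of a lesion, and the transcription factor p53 (gene Trp53), held low by Mdm2 and Mdm4, carries part of the response. Homologous recombination is mostly used by dividing cells, and human blood monocytes are known to hold little of several base excision and end joining proteins.

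Libraries were made by QuantSeq, which reads the 3′ end of polyadenylated transcripts on 1 strand, so a transcript gives about 1 countable fragment whatever its length. They held 2295967 to 6079866 counts, and the 57 genes together took 0.148% to 0.168% of the counts of M-MDSC libraries and 0.0852% to 0.103% of those of G-MDSC libraries. The smallest amount shown, 3 counts, stood for 0.349 to 1.17 CPM (counts scaled by sequencing depth), a limit that covers counting error alone. Nlrp3, the targeted gene, was counted 219 to 632 times in M-MDSC libraries of WT mice and 4 to 11 times in those of Nlrp3-/- mice, and in G-MDSC libraries 744 to 1365 and 21 to 59 times. Summed over 9 monocyte marker genes the level was 6135 to 9329 CPM in M-MDSCs and 786 to 1363 CPM in G-MDSCs, and over 9 neutrophil marker genes 1454 to 8756 CPM and 112242 to 169107 CPM. Markers of B16 melanoma cells summed to at most 1.45 CPM in any library. The 8756 CPM belonged to WT replicate 2 of M-MDSCs, which stood apart from the other M-MDSC libraries (1454 to 2534 CPM) and was also the highest of them in proliferation genes, and values without it are given where it decides a call or moves a value by much.

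The first question was how the genes differed between the genotypes within each subset. In M-MDSCs 50 of the 57 were tested after the filter on low counts, and 8 passed a Benjamini-Hochberg adjusted p under 0.05 with a fold change above 1.5 (edgeR's quasi-likelihood test). Rad50, Nbn, Rbbp8, Wrn, Xrcc4, Xpa and Fancm were lower in Nlrp3-/- cells and Ercc2 was higher. This was 16% of the members tested, against 10.6% of all 9986 genes tested, and by direction 7 lower and 1 higher, against 7.1% lower and 3.51% higher of all genes. In G-MDSCs 49 were tested and 8 passed, all lower in Nlrp3-/- cells, namely Rad50, Rbbp8, Wrn, Blm, Xrcc4, Lig4, Xpa and Ercc6. That was 16.3% of the members, which was no more than the 16.4% of all 9273 genes tested that passed in G-MDSCs (11.7% lower and 4.7% higher).

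Of the 8 genes called in each subset, 5 were the same, and Rad50, Rbbp8, Wrn, Xrcc4 and Xpa were lower in both. How many of all genes were called in both subsets was not counted here, so the overlap has no rate to be read against. The M-MDSC and G-MDSC libraries came from the same 8 mice, so the subsets are not independent observations of the genotype. Among the members tested, 33 of 50 had a log2 fold change below 0 in M-MDSCs (66.0%, against 45% of all genes) and 32 of 49 in G-MDSCs (65.3%, against 48.1%). Their median log2 fold change was −0.29 in M-MDSCs and −0.41 in G-MDSCs, where the median of all genes tested was 0.07 and 0.03. The first became −0.19 without WT replicate 2, the second −0.21 under a correction for GC content and transcript length. The plot of fold changes by pathway gives each member.

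**Figure D1:**
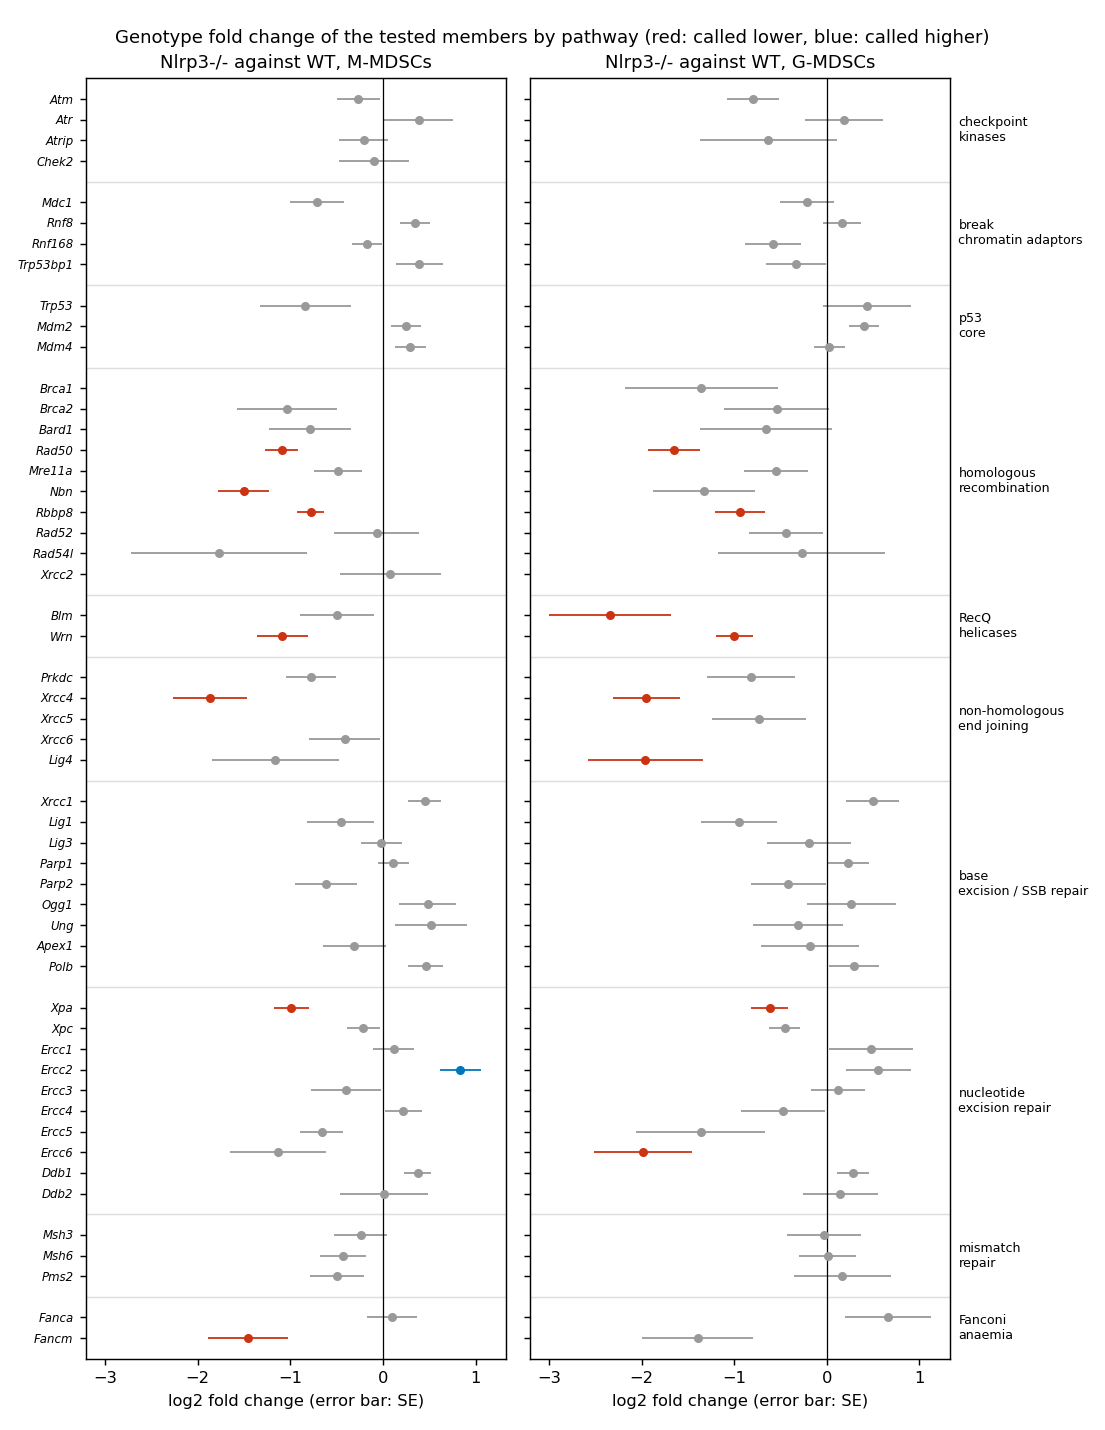
Log2 fold change of Nlrp3-/- against WT (horizontal axis) for each member that was tested, by pathway, in M-MDSCs (left) and G-MDSCs (right). Points are fold changes of edgeR's fit and bars their standard errors; red marks genes called lower and blue the gene called higher. All 15 tested members of homologous recombination, the RecQ helicases and end joining lie below 0 in G-MDSCs and 14 of 15 in M-MDSCs, while base and nucleotide excision repair members lie on both sides of 0.

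Of the MRN complex, which binds double-strand breaks, and its partner CtIP, Rad50 and Rbbp8 were called lower in both subsets, Nbn in M-MDSCs alone and Mre11a in neither. Rad50 (chromosome 11, 53649519 to 53707319, minus strand, mm10), the ATPase that tethers broken ends in the MRN complex, had 62.2, 59.6, 49.1 and 65.1 CPM in the WT M-MDSC libraries and 22.6, 30.9, 33.2 and 22.6 CPM in the Nlrp3-/- ones (replicates 1 to 4 in order, as throughout). In G-MDSCs it had 48.1, 35.2, 23.7 and 33.9 CPM in WT and 11.1, 13.6, 14.7 and 7.87 CPM in Nlrp3-/- libraries. In both subsets every WT library was above every Nlrp3-/- library. The log2 fold change was −1.09 (SE 0.18, adjusted p = 0.00443, edgeR) in M-MDSCs and −1.65 (SE 0.28, adjusted p = 0.00127) in G-MDSCs. Rad50 passed in all 8 fits of each subset that left out 1 library.

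Nbn (chromosome 4, 15957925 to 15992589, plus strand), the MRN subunit that brings Atm to the break, had 27.1, 23.3, 19.8 and 21.6 CPM in WT and 10.0, 10.7, 5.43 and 5.40 CPM in Nlrp3-/- M-MDSCs. The groups did not overlap, and the log2 fold change was −1.502 (SE 0.28, adjusted p = 0.00756, edgeR). In G-MDSCs Nbn was low in both genotypes, at 8.68, 7.45, 4.36 and 2.34 CPM in WT and 3.93, 0.987, 2.28 and 2.36 CPM in Nlrp3-/- libraries, which overlapped, and the log2 fold change of −1.33 (SE 0.55) did not pass (adjusted p = 0.111, edgeR). Rbbp8, which encodes CtIP, the partner of MRN that starts the trimming of broken ends, had 67.4, 61.2, 50.8 and 62.0 CPM in WT and 31.9, 36.2, 35.3 and 34.7 CPM in Nlrp3-/- M-MDSCs, without overlap. Its level was 25.4, 37.2, 23.7 and 23.4 CPM in WT and 10.2, 19.0, 13.9 and 17.8 CPM in Nlrp3-/- G-MDSCs, also without overlap. The log2 fold change was −0.78 (SE 0.15, adjusted p = 0.00832) in M-MDSCs and −0.94 (SE 0.27, adjusted p = 0.0286) in G-MDSCs, both by edgeR. Mre11a, the nuclease of the MRN complex, was not called in either subset, with log2 fold changes of −0.49 (adjusted p = 0.226, edgeR) and −0.54 (adjusted p = 0.297).

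**Figure D2:**
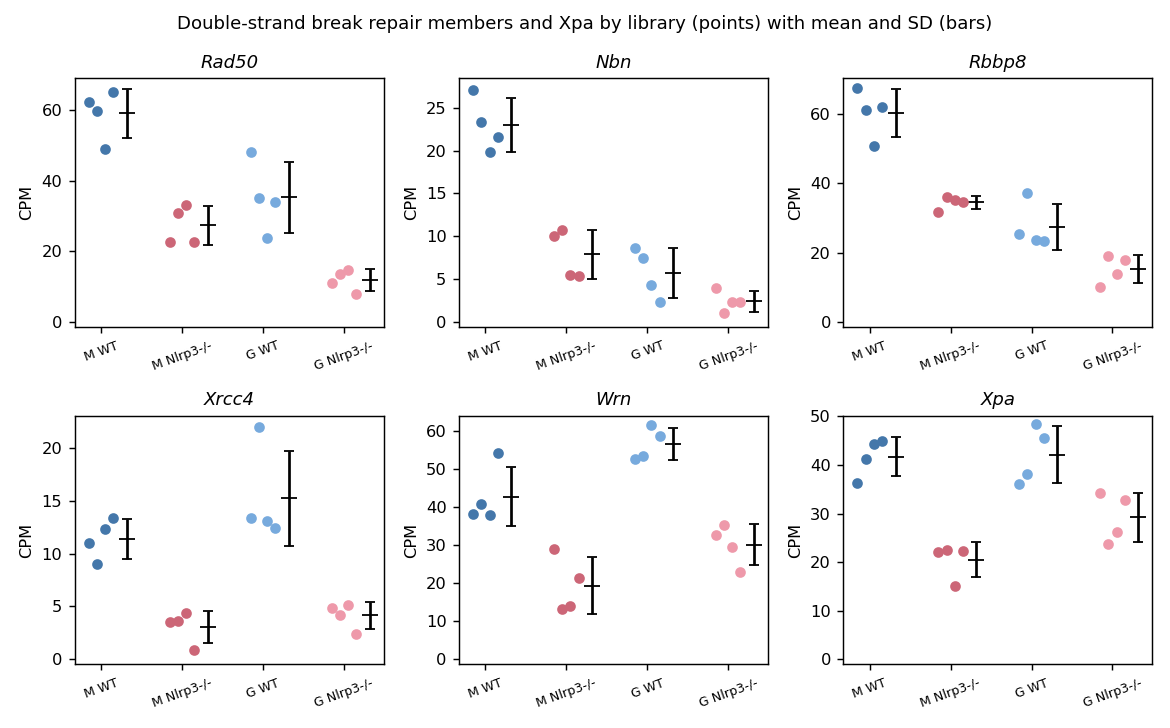
CPM (vertical axis, from 0) of 6 members in each library of the 4 groups (points, replicates 1 to 4 from left to right), with the mean and SD of the 4 libraries of a group beside them. WT libraries lie above Nlrp3-/- libraries without overlap in both subsets for Rad50, Rbbp8, Xrcc4, Wrn and Xpa, and in M-MDSCs alone for Nbn.

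The other homologous recombination members were scarce. Of the pathway's 12 members, 9 were tested in each subset, and 3 were called lower in M-MDSCs (Rad50, Nbn and Rbbp8) and 2 in G-MDSCs (Rad50 and Rbbp8), with none higher. Among all genes 7.1% and 11.7% were called lower. Brca1, the tumor suppressor that directs ends towards recombination, had only 1 to 42 counts in each WT library of M-MDSCs, 2 to 4 counts in each Nlrp3-/- one, and was too low to be tested there. In G-MDSCs it had 6.34, 4.40, 1.45 and 2.72 CPM in WT and 2.08, 0.247, 3.52 and 0 CPM in Nlrp3-/- libraries, which overlapped, with a log2 fold change of −1.36 (SE 0.83, adjusted p = 0.275, edgeR). Its 42 counts in WT replicate 2 of M-MDSCs, the library that stood apart, were the most of any library. Brca2, which acts at the strand exchange step of recombination, Bard1, the partner of Brca1, Rad52 and Rad54l had log2 fold changes from −1.77 to −0.069 in M-MDSCs and from −0.66 to −0.27 in G-MDSCs, and none was called. The value of Rad54l in M-MDSCs rested on WT replicate 2, which had 89 counts of it where the other WT libraries had 2 to 19, and was −0.51 without it (adjusted p = 0.797, edgeR). Xrcc2 was the only tested member of the pathway above 0, with 0.079 in M-MDSCs.

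Both RecQ helicases, which unwind recombination intermediates and stalled forks, were lower in Nlrp3-/- G-MDSCs. Wrn (chromosome 8, 33234384 to 33385527, minus strand), the helicase mutated in Werner syndrome, had 38.3, 40.8, 37.8 and 54.1 CPM in WT and 29.1, 13.1, 14.0 and 21.3 CPM in Nlrp3-/- M-MDSCs, and 52.8, 53.5, 61.5 and 58.8 CPM in WT and 32.6, 35.3, 29.6 and 22.8 CPM in Nlrp3-/- G-MDSCs. The genotypes did not overlap in either subset, and the log2 fold change was −1.08 (SE 0.27, adjusted p = 0.0266, edgeR) in M-MDSCs and −0.996 (SE 0.20, adjusted p = 0.00338) in G-MDSCs. Blm (chromosome 7, 80454733 to 80535119, minus strand), the Bloom syndrome helicase, had 8.35, 16.9, 5.57 and 8.56 CPM in WT and 1.85, 0, 2.90 and 3.41 CPM in Nlrp3-/- G-MDSCs, with a fold change on the log2 scale of −2.34 (SE 0.66, adjusted p = 0.0250, edgeR). The genotypes did not overlap, at 22 to 50 counts per library against 0 to 14. In M-MDSCs it had 3.72, 10.8, 3.21 and 5.83 CPM in WT and 4.30, 4.44, 4.39 and 3.47 CPM in Nlrp3-/- libraries, which overlapped (log2 fold change −0.49, SE 0.40, adjusted p = 0.431, edgeR), and the highest of these was again WT replicate 2.

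In non-homologous end joining, the route open to cells that do not divide, the genes called belong to its last step, ligation. Xrcc4 (chromosome 13, 89774027 to 90089608, minus strand), the scaffold of DNA ligase IV, had 10.96, 9.0, 12.3 and 13.4 CPM in WT and 3.49, 3.58, 4.39 and 0.899 CPM in Nlrp3-/- M-MDSCs, and 13.4, 22, 13.1 and 12.5 CPM in WT and 4.85, 4.20, 5.18 and 2.36 CPM in Nlrp3-/- G-MDSCs. The lowest WT library was above the highest Nlrp3-/- library in each subset. The log2 fold change was −1.87 (SE 0.40, adjusted p = 0.0143, edgeR) in M-MDSCs and −1.95 (SE 0.36, adjusted p = 0.00248) in G-MDSCs, and it passed in all 8 fits of each subset that left out 1 library. Lig4, the ligase itself, had 3.34, 3.38, 5.57 and 5.84 CPM in WT and 2.54, 0.247, 1.24 and 0.787 CPM in Nlrp3-/- G-MDSCs, that is 10 to 23 against 1 to 11 counts per library, without overlap. Its log2 fold change was −1.96 (SE 0.62, adjusted p = 0.0421, edgeR) in G-MDSCs and −1.16 (SE 0.68, adjusted p = 0.276) in M-MDSCs, where it was not called. Prkdc, the kinase that holds the ends together, had −0.77 (adjusted p = 0.0809, edgeR) and −0.82 (adjusted p = 0.252) and was called in neither. The Ku genes, whose products cap broken ends, were not called where they were tested, with −0.41 for Xrcc6 in M-MDSCs (adjusted p = 0.492, edgeR) and −0.73 for Xrcc5 in G-MDSCs (adjusted p = 0.348). In all, 1 of 4 end joining members tested was called in M-MDSCs and 2 of 4 in G-MDSCs, each lower. Among all genes 7.1% and 11.7% were called lower.

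Nucleotide excision repair held calls in both directions. Xpa (chromosome 4, 46155347 to 46196311, minus strand), which verifies the lesion, had 36.2, 41.2, 44.4 and 44.9 CPM in WT and 22.1, 22.5, 15.0 and 22.4 CPM in Nlrp3-/- M-MDSCs, and 36.1, 38.2, 48.5 and 45.5 CPM in WT and 34.2, 23.7, 26.1 and 32.8 CPM in Nlrp3-/- G-MDSCs. The genotypes did not overlap in either subset, and the log2 fold change was −0.99 (SE 0.19, adjusted p = 0.00843, edgeR) in M-MDSCs and −0.62 (SE 0.20, adjusted p = 0.0494) in G-MDSCs. The call in G-MDSCs was not kept under any of the 3 other scalings, without the filter on low counts or in the model of all 16 libraries (adjusted p of 0.0558 to 0.114, edgeR). Ercc2, the XPD helicase of the transcription factor TFIIH, was the only member called higher. It had 22.5, 21.2, 24.6 and 16.4 CPM in WT and 24.1, 44.4, 46.6 and 35.8 CPM in Nlrp3-/- M-MDSCs, so that replicate 1 of the Nlrp3-/- libraries lay within the range of WT, and the log2 fold change was 0.84 (SE 0.22, adjusted p = 0.0324, edgeR). In G-MDSCs its log2 fold change of 0.56 (SE 0.35) did not pass (adjusted p = 0.297, edgeR). Ercc6, which encodes CSB and acts where a lesion blocks RNA polymerase, had 5.68, 6.09, 4.36 and 5.84 CPM in WT and 1.62, 0.494, 2.28 and 1.31 CPM in Nlrp3-/- G-MDSCs, without overlap, a log2 fold change of −1.99 (SE 0.53, adjusted p = 0.0190, edgeR) from 15 to 18 against 2 to 11 counts. The other 7 members of the pathway, among them Xpc, the sensor of distorted DNA, were not called between genotypes.

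None of the 9 base excision and single-strand break repair members was called in either subset. Polb, the polymerase that fills the gap, had the smallest p of the pathway in M-MDSCs after Xrcc1, with 68.7, 68.5, 66.5 and 52.8 CPM in WT and 63.4, 95.03, 117 and 74.6 CPM in Nlrp3-/- libraries (log2 fold change 0.46, SE 0.19, adjusted p = 0.127, edgeR). Xrcc1, the scaffold of single-strand break repair, singled out after its values were seen, lay higher in all 4 Nlrp3-/- libraries than in all 4 WT libraries in both subsets, at 16.1 ± 1.38 CPM (SD, n = 4) against 21.7 ± 1.01 CPM in M-MDSCs and 8.58 ± 1.503 CPM against 12.8 ± 0.363 CPM in G-MDSCs. The log2 fold changes of 0.45 (adjusted p = 0.113) and 0.50 (adjusted p = 0.251, edgeR) missed both thresholds. Across all members tested, the groups did not overlap for 1 higher and 11 lower members in M-MDSCs, against 7.59% and 11.7% of all genes, and for 2 higher and 8 lower members in G-MDSCs, against 12% and 12.3%.

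Checkpoint kinases, adaptors at broken chromatin, the p53 core and mismatch repair held no call between genotypes. Atm, the kinase of the double-strand break response, had 43.1, 21.0, 26.7 and 26.1 CPM in WT and 12.5, 20.7, 14.3 and 23.6 CPM in Nlrp3-/- G-MDSCs, and its log2 fold change was −0.80 (SE 0.28, adjusted p = 0.0635, edgeR). The corresponding value in M-MDSCs was −0.27 (SE 0.23, adjusted p = 0.464, edgeR). Trp53 had 5.57, 13.9, 11.1 and 8.91 CPM in WT and 10.0, 2.05, 2.297 and 6.55 CPM in Nlrp3-/- M-MDSCs, and 2.34, 5.41, 6.78 and 3.89 CPM in WT and 9.47, 8.89, 4.97 and 3.41 CPM in Nlrp3-/- G-MDSCs. The genotypes overlapped in both subsets, with log2 fold changes of −0.84 (SE 0.49, adjusted p = 0.271, edgeR) and 0.43 (SE 0.47, adjusted p = 0.564). The value in M-MDSCs turned on 1 library, since without Nlrp3-/- replicate 1 it was −1.43 and passed (adjusted p = 0.0462, edgeR). Mdm2, the ubiquitin ligase that degrades p53, was higher in all 4 Nlrp3-/- than in all 4 WT G-MDSC libraries, yet its log2 fold change of 0.40 (SE 0.16) did not pass (adjusted p = 0.0948, edgeR). Msh6, which recognizes mismatched bases, had log2 fold changes of −0.43 (SE 0.25, adjusted p = 0.263, edgeR) and 0.0090 (SE 0.30, adjusted p = 0.989). In the Fanconi anaemia pathway, which unhooks crosslinks between the strands, Fancm had 5.95, 12.1, 4.46 and 5.48 CPM in WT and 1.16, 3.58, 2.72 and 2.83 CPM in Nlrp3-/- M-MDSCs, without overlap, a log2 fold change of −1.46 (SE 0.43, adjusted p = 0.0487, edgeR), while Fancd2 and Fanci had at most 18 counts in any library and were not tested.

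Averaged over the members of a pathway on the log2 CPM scale, the genotype difference was largest in the routes that mend double-strand breaks. Over the 44 members tested in every comparison, the mean log2 CPM was 4.18 ± 0.11 (SD, n = 4) in M-MDSCs of WT mice and 3.84 ± 0.057 in those of Nlrp3-/- mice, and in G-MDSCs 3.81 ± 0.079 and 3.51 ± 0.16. The 7 homologous recombination members had 3.75 ± 0.18 against 2.91 ± 0.22 in M-MDSCs and 3.29 ± 0.39 against 2.53 ± 0.34 in G-MDSCs. For the 2 end joining members in that selection, Prkdc and Xrcc4, the means fell by 1.34 in M-MDSCs and by 1.26 in G-MDSCs. Without WT replicate 2 of M-MDSCs, left out after the data were seen, the differences there were −0.29 over the 44 members, −0.75 in homologous recombination and −1.44 in end joining. The 9 base excision members, in contrast, differed between genotypes by 0.0040 and −0.0034, and the 9 nucleotide excision members by −0.10 and −0.080. The 2 Fanconi anaemia members differed by −0.63 in M-MDSCs (−0.43 if WT replicate 2 was left out) and −0.40 in G-MDSCs. Both decreases came from Fancm, whose log2 fold changes were −1.46 in M-MDSCs and −1.39 in G-MDSCs. Fanca went the other way, with log2 fold changes of 0.10 and 0.66, and was not called. Homologous recombination, RecQ helicases and end joining were pooled, a grouping made after the values were seen. Of their members, 5 of 15 tested were called lower in M-MDSCs and 6 of 15 in G-MDSCs, where 7.1% and 11.7% of all genes were. Once libraries were corrected for GC content and transcript length, 3 and 2 of the 15 were called lower. Under that correction 417 of all 9986 genes in M-MDSCs and 665 of 9273 in G-MDSCs were called lower. In base and nucleotide excision repair 1 lower and 1 higher of 19 were called in M-MDSCs and 2 lower of 19 in G-MDSCs. These are descriptions of the lists, and no difference between pathways was tested.

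**Figure D3:**
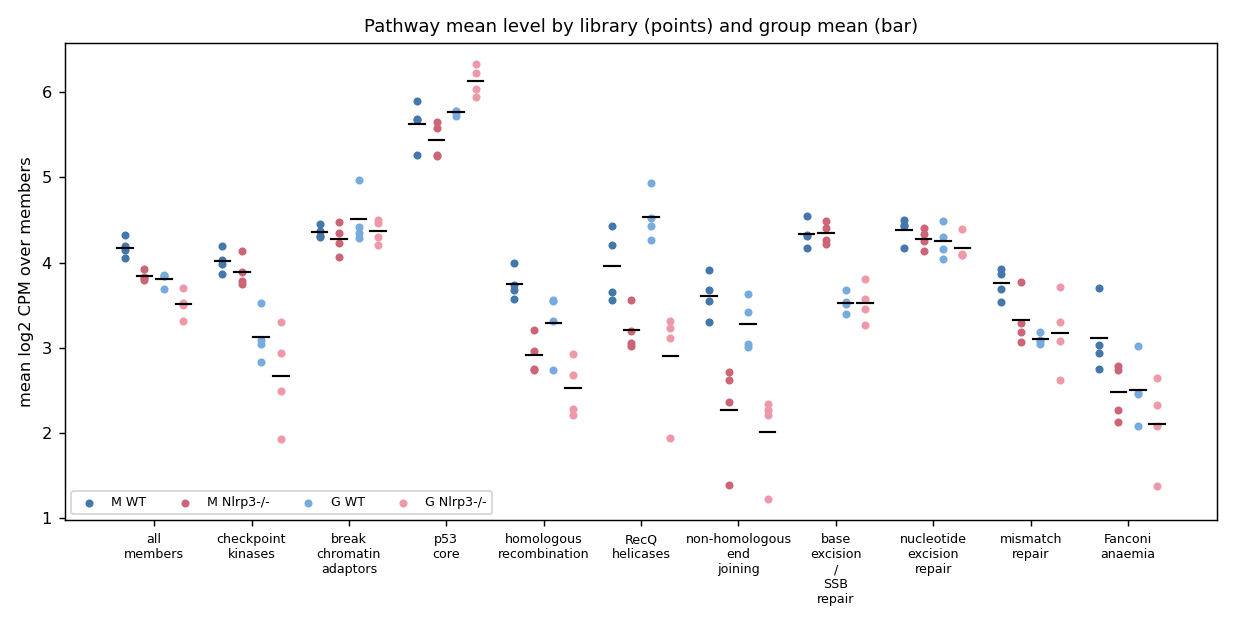
Mean log2 CPM over the members of each pathway (vertical axis, log2 scale, only members tested in every comparison) in each library (points), with the mean of the 4 libraries of a group as a bar. Group means of homologous recombination, RecQ helicases and end joining are lower in Nlrp3-/- than in WT libraries of both subsets, base excision repair means are lower in G-MDSCs than in M-MDSCs of both genotypes, and the p53 core is highest in Nlrp3-/- G-MDSCs.

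Other measures moved together with the genotype. In both subsets the fold change rose with the GC content of the transcript across all genes, with a Spearman correlation over genes of 0.400 in M-MDSCs and 0.404 in G-MDSCs, and over the members of 0.469 (50 genes) and 0.581 (49 genes), where the genes share the same libraries. GC content and length were those of the longest annotated transcript of a gene, protein-coding ones first, and not of its sequenced 3′ end. The members called lower had a GC content of 41.0% to 50.0% in each subset, while the median of all genes tested was 49.9% and that of the break repair members 44.4%. When each library was corrected for GC content and transcript length, Rad50, Nbn, Xrcc4 and Xpa were still called lower in M-MDSCs, with log2 fold changes of −0.82, −1.36, −1.71 and −1.08, and Rad50, Xrcc4 and Xpa in G-MDSCs, with −1.31, −1.80 and −0.83. Rbbp8, at −0.53 in M-MDSCs (adjusted p = 0.0623, edgeR) and −0.58 in G-MDSCs (adjusted p = 0.181), and Wrn, at −0.70 (adjusted p = 0.118) and −0.51 (adjusted p = 0.0973), no longer passed in either subset. Ercc2 (0.52) and Fancm (−1.08) were lost in M-MDSCs and Blm (−1.98), Lig4 (−1.54) and Ercc6 (−1.55) in G-MDSCs, with adjusted p values of 0.0666 to 0.139 (edgeR), and Mdm4 was gained in M-MDSCs (log2 fold change 0.68, adjusted p = 0.0238, edgeR). The median of the homologous recombination members moved from −0.79 to −0.51 in M-MDSCs and from −0.66 to −0.58 in G-MDSCs under the correction, and that of the end joining members from −0.97 to −0.69 and from −1.38 to −1.06.

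**Figure D4:**
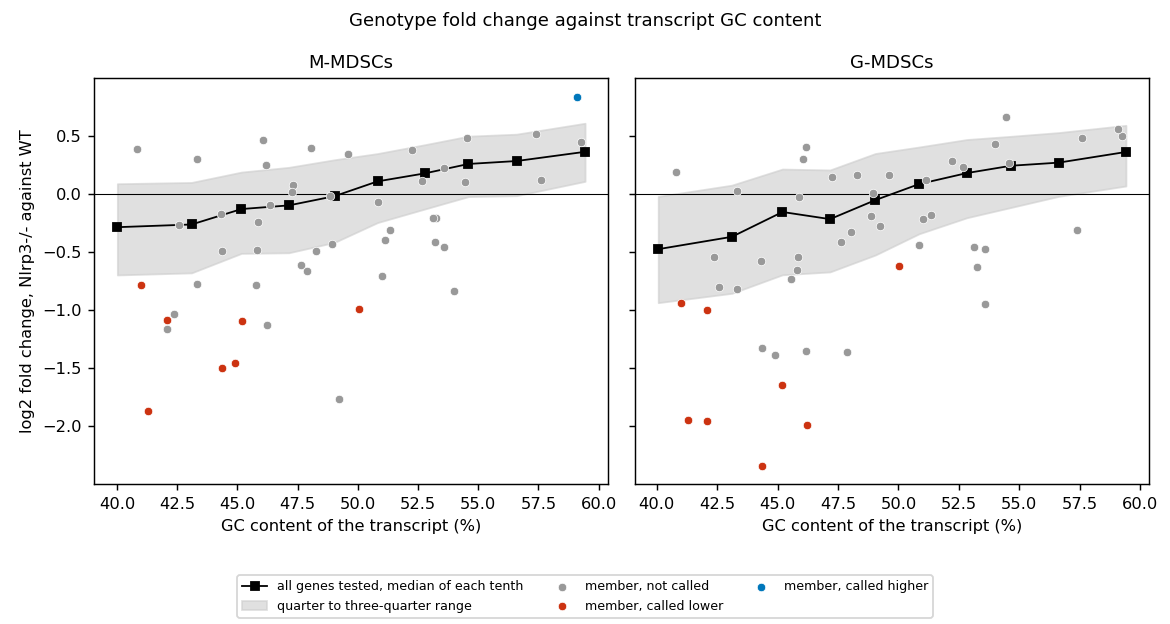
Log2 fold change of Nlrp3-/- against WT (vertical axis) against the GC content of the transcript in percent (horizontal axis) in M-MDSCs and G-MDSCs. The line joins the medians of all genes tested in 10 bins of GC content, grey marks the range from their lower to their upper quartile, and points are the members; the members called lower lie between 41.0% and 50.0% GC and below the line of medians in both subsets.

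Part of the proliferation genes was lower in Nlrp3-/- cells as well. Of 29 tested in M-MDSCs, 8 were called lower and none higher, where 7.1% of all genes were called lower. The summed level of the list was 576 to 1565 CPM in WT and 304 to 484 CPM in Nlrp3-/- libraries. Without WT replicate 2, whose 1565 CPM was the highest, the WT sums were 576 to 661 CPM and 4 of 29 were called lower, against 407 of all 10136 genes. In G-MDSCs 6 of 27 were called lower, where 11.7% of all genes were. The sums of 727 to 1503 CPM in WT and 699 to 959 CPM in Nlrp3-/- libraries overlapped. Macrophage and dendritic cell markers were higher, with 4 of 7 called in M-MDSCs (122 to 149 CPM in WT and 200.3 to 326 CPM in Nlrp3-/- libraries) and 4 of 5 in G-MDSCs (119.8 to 214 CPM and 356 to 507 CPM). Among all genes 3.51% and 4.7% were called higher. The part of GC content, cell division or other cell types in the differences of the repair genes was not tested, and in sorted bulk cells fewer cells of a type and less RNA per cell cannot be told apart.

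The calls differed in how far they rested on single libraries. Without WT replicate 2 of M-MDSCs, which had the 1565 CPM of proliferation genes, 5 members were called in M-MDSCs, which were Rad50, Nbn, Rbbp8, Xrcc4 and Xpa, and these 5 also passed whichever other library was left out. Wrn in M-MDSCs missed the threshold without WT replicate 2 or 4 or Nlrp3-/- replicate 3 or 4 (adjusted p of 0.0503 to 0.0878, edgeR), Ercc2 without any library other than replicate 1 of either genotype (0.0527 to 0.105) and Fancm without any 1 of the 8 (adjusted p of 0.0536 to 0.177). In G-MDSCs Rad50, Wrn and Xrcc4 passed in all 8 such fits. Rbbp8 was lost without WT replicate 2 or Nlrp3-/- replicate 1 or 3 (adjusted p of 0.0683 to 0.0944, edgeR), Blm without WT replicate 2 or Nlrp3-/- replicate 1 (0.0991 and 0.0509), Ercc6 without WT replicate 2 or 4 or Nlrp3-/- replicate 4 (0.0542 to 0.0562), Lig4 without any library other than Nlrp3-/- replicate 1 (0.0567 to 0.115) and Xpa without any other than replicate 1 of either genotype (0.0677 to 0.131).

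The promoters of Xrcc4 and Xpa are shown because both genes were lower in both subsets with and without the correction for GC content. The sequences are those of RefSeq (GRCm38.p6, the build of mm10), from 250 bases before to 50 bases after the transcription start, read 5′ to 3′ on the strand of the gene. Capitals mark a GC box (GGGCGG or CCGCCC) or a CCAAT box (CCAAT or ATTGG).
Xrcc4 (chr13:90089559-90089858, minus strand): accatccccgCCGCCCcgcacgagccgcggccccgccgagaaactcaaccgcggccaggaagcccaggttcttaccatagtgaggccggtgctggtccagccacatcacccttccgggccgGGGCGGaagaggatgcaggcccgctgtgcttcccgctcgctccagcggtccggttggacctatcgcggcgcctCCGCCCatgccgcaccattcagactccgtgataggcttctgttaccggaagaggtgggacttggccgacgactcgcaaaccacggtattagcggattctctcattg
Xpa (chr4:46196262-46196561, minus strand): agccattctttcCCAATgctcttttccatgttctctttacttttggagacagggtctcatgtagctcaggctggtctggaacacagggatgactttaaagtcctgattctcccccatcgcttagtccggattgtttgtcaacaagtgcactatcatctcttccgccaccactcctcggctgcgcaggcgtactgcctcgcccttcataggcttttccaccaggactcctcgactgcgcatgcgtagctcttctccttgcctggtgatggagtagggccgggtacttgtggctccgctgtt
The window of Xrcc4 held 3 GC boxes and no CCAAT box, and that of Xpa 1 CCAAT box and no GC box. Promoter sequence was at hand for 46 of the 57 members, in 52 windows, and for 32851 windows in all. A GC box was present in 73.1% of the members' windows and 35.7% of all windows, and a CCAAT box in 50.0% and 37.4%. An E2F motif (TTTCGCGC or TTTGGCGC, both strands), which is common before genes of the cell cycle, was present in 5.77% of the members' windows and 0.813% of all windows, and a cAMP response element (TGACGTCA) in 3.85% and 1.79%. The median GC content was 59.2% over the members' windows and 52.7% over all windows, and motifs were searched on both strands and counted whether or not they overlapped another. A match is a description of the letters and says nothing of binding.

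The genotype effect did not differ detectably between the subsets for any member. In a model of all 16 libraries with an interaction of subset and genotype, 0 of 53 members tested passed (edgeR's quasi-likelihood test), against 0.028% of all 10696 genes tested, and DESeq2 also called 0. At an unadjusted p under 0.05 there was 1 member, against 4.49% of all genes. This was Blm, whose effect in G-MDSCs minus that in M-MDSCs was −1.73 on the log2 scale (SE 0.81, unadjusted p = 0.0452, adjusted p = 0.992, edgeR). For Nbn, called in M-MDSCs alone, the difference was 0.29 (SE 0.58), and for Xpa 0.49 (SE 0.27). Trp53, whose fold change was below 0 in M-MDSCs and above 0 in G-MDSCs, had a difference of 1.41 (SE 0.70, adjusted p = 0.992, edgeR).

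The second question was how the genes differed between the subsets of the same mice. In WT mice 49 members were tested and 25 passed, 5 higher and 20 lower in G-MDSCs (51.0%), where 53.3% of all 9739 genes passed, 26.3% higher and 27.1% lower. In Nlrp3-/- mice 48 were tested and 20 passed, 4 higher and 16 lower (41.7%), where 51% of all 10071 genes passed, 23.7% higher and 27.4% lower. The share of members called was thus no larger than that of all genes, and the split between higher and lower was uneven, with medians of −0.37 and −0.43 against −0.05 and −0.12 over all genes. In both genotypes 17 members were called in the same direction, 15 lower and 2 higher, which is 68.0% of those called in WT and 85.0% of those called in Nlrp3-/- mice. The overlap of calls over all genes was not counted here either. The scaling matters here, because the 20 most abundant genes took 33.2% to 43.2% of the counts of WT G-MDSC libraries and 21.2% to 30.0% of WT M-MDSC libraries. Scaling by library size alone moved the median of all genes to −0.79 in WT and −0.83 in Nlrp3-/- mice and the split of the members to 1 higher and 30 lower and to 1 higher and 24 lower, where it moved that of all genes called to 81.3% and 81.5% lower. B cell markers were higher in G-MDSCs too (5 of 5 tested in WT and 4 of 5 in Nlrp3-/- mice), with sums of 116 to 150.2 and 108 to 223 CPM in M-MDSCs and 269 to 447 and 304 to 439 CPM in G-MDSCs of the 2 genotypes, and their part in the differences of the repair genes was not tested.

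The member with the smallest p in both genotypes was Xpc, the sensor that starts global nucleotide excision repair (chromosome 6, 91489305 to 91515888, minus strand). It had 29.5, 24.6, 22.7 and 23.0 CPM in WT M-MDSCs and 128, 120.5, 156 and 102 CPM in WT G-MDSCs, and 21.1, 19.8, 23.8 and 20.2 CPM and 103, 103, 101 and 84.7 CPM in the Nlrp3-/- mice. Each G-MDSC library was above each M-MDSC library, with a log2 fold change of 2.34 (SE 0.18, adjusted p = 6.42e-07, edgeR) in WT and 2.097 (SE 0.17, adjusted p = 1.7e-07) in Nlrp3-/- mice. The nucleases of the same pathway went the other way. Ercc4, the XPF subunit of the nuclease that cuts 5′ of the lesion, had 15.4, 22.5, 17.7 and 21.2 CPM in WT M-MDSCs and 8.35, 6.77, 10.2 and 7.78 CPM in WT G-MDSCs (log2 fold change −1.20, SE 0.24, adjusted p = 0.00112, edgeR). Ercc5, the XPG nuclease that cuts 3′ of it, had 15.8, 18.1, 16.9 and 16.8 CPM and 3.00, 8.80, 6.78 and 4.28 CPM (log2 fold change −1.55, SE 0.31, adjusted p = 0.00116, edgeR). In Nlrp3-/- mice Ercc4 had −1.91 (adjusted p = 0.000867, edgeR) and Ercc5 −2.25 (adjusted p = 0.00644), and Ercc2 was lower in both genotypes at −1.08 and −1.38. Ddb2 and Ercc3 passed as higher in Nlrp3-/- mice, at 1.28 and 1.05, and Ercc1 as lower in WT mice, at −0.92. Scaling by library size alone kept neither Ddb2 (adjusted p = 0.202, edgeR) nor Ercc3, and upper-quartile scaling did not keep Ercc3. Ercc3 was lost without M-MDSC replicate 2 or G-MDSC replicate 1 or 2 (adjusted p of 0.0704 to 0.0842, edgeR), and Ercc1 without any library other than M-MDSC replicate 2 and G-MDSC replicates 1 and 3 (0.0509 to 0.116).

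**Figure D5:**
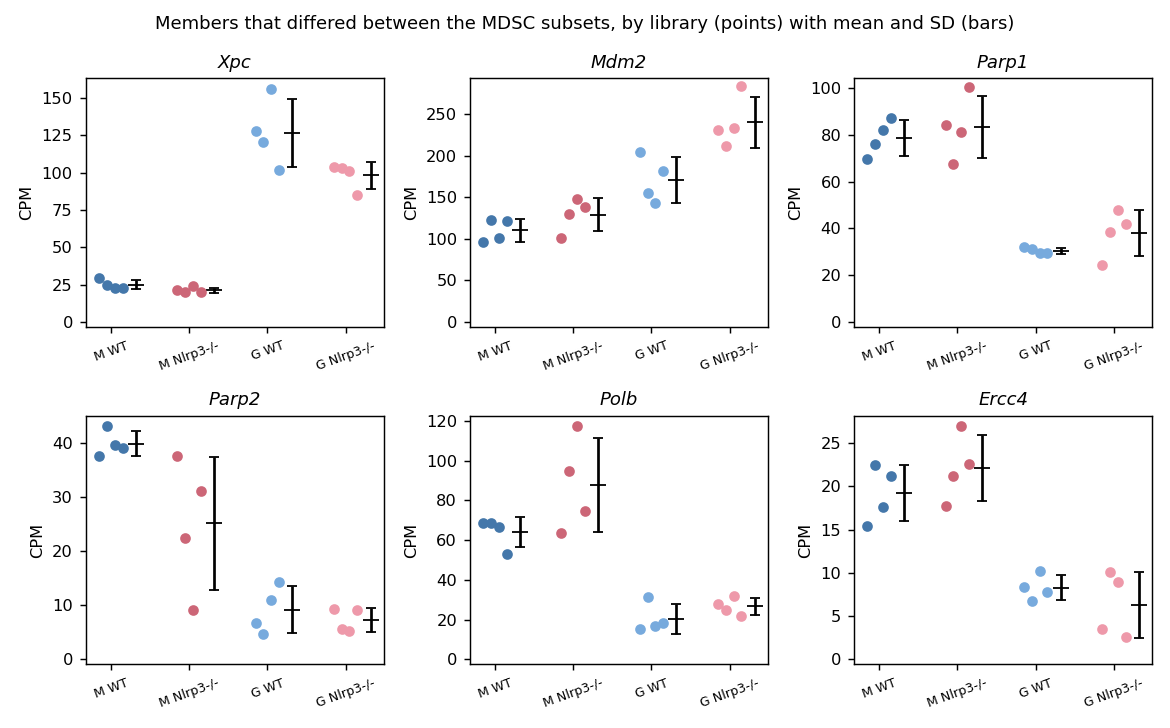
CPM (vertical axis, from 0) of 6 members in each library of the 4 groups (points, replicates 1 to 4 from left to right), with the mean and SD of the 4 libraries of a group beside them. Xpc and, on this TMM scale, Mdm2 (which turned in WT with library size alone) are higher in G-MDSCs than in M-MDSCs of the same genotype, and Parp1, Polb and Ercc4 are lower, without overlap; Parp2 overlaps between the subsets of Nlrp3-/- mice in 1 M-MDSC library.

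In base excision and single-strand break repair the same 5 of 9 members were called lower in G-MDSCs in each genotype and none higher. Among all genes 27.1% in WT and 27.4% in Nlrp3-/- mice were called lower. Parp1 (chromosome 1, 180568924 to 180601254, plus strand), the sensor that marks nicked DNA with poly(ADP-ribose), had 69.5, 76.1, 82.2 and 87.0 CPM in WT M-MDSCs and 32.1, 31.1, 29.3 and 29.6 CPM in WT G-MDSCs, and 84.3, 67.7, 81.0 and 100.3 CPM and 24.5, 38.3, 47.9 and 41.7 CPM in Nlrp3-/- mice. The subsets did not overlap in either genotype, with log2 fold changes of −1.36 (SE 0.15, adjusted p = 1.36e-05, edgeR) and −1.25 (SE 0.22, adjusted p = 0.000236). Parp2, its relative, had 37.7, 43.2, 39.6 and 39.1 CPM in WT M-MDSCs and 6.68, 4.74, 10.9 and 14.4 CPM in WT G-MDSCs (log2 fold change −2.12, SE 0.29, adjusted p = 6.2e-05, edgeR). In Nlrp3-/- M-MDSCs Parp2 was uneven, at 37.7, 22.5, 9.19 and 31.2 CPM, and in Nlrp3-/- G-MDSCs it had 9.24, 5.68, 5.18 and 9.18 CPM, so that M-MDSC replicate 3 lay within the range of the G-MDSCs (log2 fold change −1.92, SE 0.41, adjusted p = 0.00119, edgeR). Polb had 15.0, 31.5, 16.7 and 18.3 CPM in WT and 27.7, 24.9, 31.9 and 21.8 CPM in Nlrp3-/- G-MDSCs, below every M-MDSC library, with log2 fold changes of −1.66 (SE 0.24, adjusted p = 9.17e-05, edgeR) and −1.82 (SE 0.21, adjusted p = 6.49e-06). The other members called in both genotypes were Xrcc1, at −0.91 and −0.87, and Apex1, the endonuclease that opens abasic sites, at −1.28 and −1.17. The call of Apex1 was lost without M-MDSC replicate 3 or G-MDSC replicate 2 or 4 in WT (adjusted p of 0.0618 to 0.0712, edgeR) and without any library other than M-MDSC replicates 2 and 3 and G-MDSC replicate 1 in Nlrp3-/- mice (0.0800 to 0.103). The mean log2 CPM of the pathway was 4.34 ± 0.16 in WT M-MDSCs and 3.53 ± 0.11 in WT G-MDSCs, and 4.34 ± 0.13 and 3.53 ± 0.23 in Nlrp3-/- mice (SD, n = 4).

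The promoters of Parp1 and Parp2 are shown in the same way, from RefSeq (GRCm38.p6) with GC boxes in capitals, as the pair of related genes that were both lower in G-MDSCs.
Parp1 (chr1:180568641-180568940, plus strand): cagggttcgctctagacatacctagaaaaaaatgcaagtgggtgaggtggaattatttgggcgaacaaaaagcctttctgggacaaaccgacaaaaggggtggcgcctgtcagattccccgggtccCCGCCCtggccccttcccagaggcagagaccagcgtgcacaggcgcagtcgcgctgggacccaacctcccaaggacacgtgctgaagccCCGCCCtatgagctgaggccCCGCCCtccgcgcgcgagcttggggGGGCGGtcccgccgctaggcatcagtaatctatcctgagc
Parp2 (chr14:50807666-50807965, plus strand): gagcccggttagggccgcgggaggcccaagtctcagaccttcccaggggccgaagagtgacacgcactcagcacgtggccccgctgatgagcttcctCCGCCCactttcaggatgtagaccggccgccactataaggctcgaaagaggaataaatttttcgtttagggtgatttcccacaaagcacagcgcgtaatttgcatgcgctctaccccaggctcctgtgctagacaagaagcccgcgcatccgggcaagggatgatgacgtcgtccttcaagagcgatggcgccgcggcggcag
Parp1 held 4 GC boxes and Parp2 held 1, and neither window held a CCAAT box.

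In the p53 core Mdm2 was higher in G-MDSCs, with 95.7, 123, 101 and 122 CPM in WT M-MDSCs and 204, 155, 143 and 182 CPM in WT G-MDSCs, and 101, 130, 147 and 138 CPM and 231, 212, 233 and 283 CPM in Nlrp3-/- mice. The log2 fold change was 0.64 (SE 0.17, adjusted p = 0.00598, edgeR) in WT and 0.78 (SE 0.16, adjusted p = 0.000965) in Nlrp3-/- mice. This direction held relative to the median of the genes only, since scaling by library size alone turned the value of Mdm2 in WT to −0.11 and left 0.062 in Nlrp3-/- mice (adjusted p = 0.732, edgeR), and in WT it fell under the fold change minimum with upper-quartile scaling (0.42), without a filter on low counts or with a minimum of 10 counts (0.58 and 0.53) and without M-MDSC replicate 1 or 3 or G-MDSC replicate 1 (log2 fold change 0.53 to 0.55). Mdm4, which binds p53 without degrading it, was higher in WT mice (0.85, adjusted p = 0.00154, edgeR), a call that library size alone did not keep (0.094, adjusted p = 0.655). Trp53 itself was lower in G-MDSCs of WT mice (−1.08, SE 0.39, adjusted p = 0.0327, edgeR), with overlapping libraries and a call that was lost without any of 4 libraries (M-MDSC replicate 2 or 3, G-MDSC replicate 1 or 4, adjusted p of 0.0646 to 0.0866), and had 0.20 (SE 0.56, adjusted p = 0.782, edgeR) in Nlrp3-/- mice.

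Members of the break response were lower in G-MDSCs where they were called, apart from Trp53bp1 and Xrcc5 in WT mice. Nbn had a log2 fold change of −2.0 (SE 0.33, adjusted p = 0.000294, edgeR) in WT and −1.83 (SE 0.49, adjusted p = 0.00639) in Nlrp3-/- mice. Rbbp8 had −1.14 (SE 0.20, adjusted p = 0.000374, edgeR) and −1.30 (SE 0.24, adjusted p = 0.000357). Rad50 had −0.74 (SE 0.21, adjusted p = 0.0106, edgeR) in WT, which became −0.58 without G-MDSC replicate 3 and then missed the fold change minimum, and −1.31 (SE 0.26, adjusted p = 0.000792) in Nlrp3-/- mice. Rnf168, the ubiquitin ligase that marks chromatin beside a break, had 36.2, 45.6, 38.6 and 32.5 CPM in Nlrp3-/- M-MDSCs and 13.9, 17.3, 23.0 and 18.1 CPM in Nlrp3-/- G-MDSCs, without overlap (−1.19, SE 0.22, adjusted p = 0.000411, edgeR). In WT it had −0.78 (adjusted p = 0.0263, edgeR) and missed the threshold without G-MDSC replicate 3 or 4 (adjusted p of 0.0729 and 0.0793). Trp53bp1, which shields broken ends from trimming, was higher in G-MDSCs of WT mice (1.22, adjusted p = 0.00221, edgeR), as was Xrcc5, the Ku80 subunit that caps broken ends (1.52, adjusted p = 0.00901), from 3 to 15 counts in M-MDSCs and 9 to 24 in G-MDSCs. Its partner Xrcc6, or Ku70, was lower (−1.77, adjusted p = 0.00628, edgeR). Scaling by library size alone kept neither the call of Trp53bp1 nor that of Xrcc5 (adjusted p of 0.166 and 0.132, edgeR). The checkpoint kinase subunit Atrip was lower in both genotypes (−1.51 and −1.93), as were Chek2 (−1.09 and −1.31) and Prkdc (−1.07 and −1.12), and Atm in Nlrp3-/- mice (−0.98, adjusted p = 0.0107, edgeR). Without M-MDSC or G-MDSC replicate 3 Atrip was lost in Nlrp3-/- mice (adjusted p of 0.0521 and 0.0576, edgeR), Prkdc without any library other than M-MDSC replicate 4 and G-MDSC replicate 2 (0.0709 to 0.117) and Chek2 without any other than M-MDSC replicate 4 (0.0654 to 0.159), and Chek2 in WT without M-MDSC replicate 2 or 4 or G-MDSC replicate 1, 2 or 3 (0.0710 to 0.0872). Fanca, of the Fanconi core complex, and Pms2, of mismatch repair, were called lower in WT mice, at −1.38 and −1.25. With the mouse as a block, Chek2 in Nlrp3-/- mice was not called (adjusted p = 0.0967, edgeR), while Blm (0.78) and Ddb2 (1.16) were called higher in WT, and Mdm4 (0.59) higher and Lig3 (−0.95) lower in Nlrp3-/- mice.

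Further repair genes outside the 57, from a list of 94 written out by pathway, were read in the same fits. Between genotypes in M-MDSCs 73 were tested, 7 were lower in Nlrp3-/- cells and 1 higher (11%, against 10.6% of all genes). Without WT replicate 2 these were 3 and 1, where 5.07% of all genes were called. In G-MDSCs 63 were tested, 11 were lower and 2 higher (20.6%, against 16.4%). By pathway this list differed in part from the 57. Its end joining genes, 8 tested in each subset, had no call and medians of 0.078 in M-MDSCs and 0.081 in G-MDSCs. Its 2 RecQ helicases had medians of 0.52 and 0.46, and its recombination genes −0.62 (13 tested) and −0.35 (11 tested). Smc6, a subunit of the Smc5/6 complex of recombination, was lower in both subsets (−0.99, adjusted p = 0.00706, and −1.48, adjusted p = 9.56e-05, edgeR), with 197, 210.4, 168 and 195 CPM in WT against 91.1, 125, 95.2 and 70.3 CPM in Nlrp3-/- M-MDSCs. Rev3l, the catalytic subunit of the translesion polymerase zeta, had −1.40 (adjusted p = 0.00670) and −1.505 (adjusted p = 0.000383, edgeR), Topbp1, the activator of Atr, had −1.47 (adjusted p = 0.0162) and −2.36 (adjusted p = 0.00148, edgeR), and Usp1, the deubiquitinase of Fancd2, had −1.14 (adjusted p = 0.00473) and −1.06 (adjusted p = 0.00481, edgeR). Between the subsets 26 of 71 were lower and 7 higher in G-MDSCs of WT mice, and 25 of 73 lower and 6 higher in Nlrp3-/- mice (46.5% and 42.5% in all, against 53.3% and 51% of all genes).

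Target genes of p53, a list of 24, were read beside the p53 core. Between genotypes 1 of 18 tested was called in M-MDSCs (5.56%, against 10.6% of all genes), which was Bbc3, the cell death activator PUMA, higher in Nlrp3-/- cells (0.87, adjusted p = 0.00832, edgeR). In G-MDSCs 3 of 19 were higher and 3 lower (31.6%, against 16.4%). Bbc3 was higher there too (0.996, adjusted p = 0.00419, edgeR), while Cdkn1a, the cell cycle inhibitor p21, was lower (−1.05, adjusted p = 0.0142), with 51.4, 72.8, 61.5 and 31.9 CPM in WT and 21.3, 32.1, 23.6 and 35.4 CPM in Nlrp3-/- libraries. Between subsets Cdkn1a was lower in G-MDSCs of both genotypes (−2.97, adjusted p = 7.91e-07, and −3.46, adjusted p = 1.1e-08, edgeR), and Btg2, which slows cell growth, was higher (2.33, adjusted p = 2.83e-06, and 2.97, adjusted p = 5.81e-09, edgeR). In all 9 of 19 targets were higher and 3 lower in G-MDSCs of WT mice, and 8 of 18 higher and 4 lower in those of Nlrp3-/- mice. Among all genes 26.3% were higher and 27.1% lower in WT, and 23.7% and 27.4% in Nlrp3-/- mice.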

How the data were processed

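The authors sequenced single-end 3′ libraries, aligned them with HISAT2 2.1.0 to mm10 and counted reads per gene by strand with HTSeq. The deposited values are raw counts per gene symbol, 1 table for each of the 16 libraries. According to the study 15 or 17 PCR cycles were used, and the paper does not mention molecular identifiers. Which library had which number of cycles is not given in the sources used here. The p-values therefore measure the spread between mice together with such technical spread. Cells were sorted to a purity above 95%. Of the 24421 symbols 23384 matched the mm10 annotation by symbol and 651 by an older one. None of the 24 pairs of libraries within a group held identical counts, and the pairs differed by 6.76 to 50.6 times sampling noise (chi-square per degree of freedom).

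Genes were filtered with filterByExpr, scaled by TMM and tested with edgeR 4.0.16 (quasi-likelihood) in R 4.3.3, for the 2 groups compared, over all genes with Benjamini-Hochberg adjustment. A call needs an adjusted p under 0.05 and a fold change above 1.5, as in the study, which used edgeR 3.14.0. Printed CPM are scaled over all 16 libraries, while fold changes come from the fit of each comparison. Mean log2 CPM used a prior count of 2. An exact permutation test of 4 against 4 libraries cannot go below 0.0286. The steps were run on simulated counts with known changes and the same dispersion for all genes, which checks the code and not any call made here. Both subsets of a mouse carry 1 replicate number, so those numbers pair the libraries (correlations of deviations 0.0971 to 0.397 in WT and 0.00821 to 0.382 in Nlrp3-/- mice), and fits with the mouse as a block were run as well. The alternatives were 3 other scalings, other filters on low counts, DESeq2 1.42.0, no fold change minimum, each library left out in turn, a correction for GC content and transcript length (splines with 4 degrees of freedom), a replicate block and a model of all 16 libraries.

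Members are named with the value of every library if among the 10 with the smallest p of those called between genotypes or the 8 of those called between subsets, or if they lead a pathway with none; Trp53 and Brca1 are named whatever their p, and of other lists at most 4 genes a comparison. The members and lists were chosen with earlier results of these data known.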

Additional observations from a re-analysis of the deposited data

Results flagged for a closer look

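In 14 of the 148 groups of 4 libraries examined (9.46%), 1 library stood apart from the other 3 by Dixon's criterion, which chance alone gives in about 1 in 20 groups. For the mean log2 CPM over all members this was WT replicate 3 of G-MDSCs, at 3.69 where the others had 3.84 to 3.86. In Nlrp3-/- G-MDSCs the RecQ helicase mean of replicate 2 was 1.94 (others 3.11 to 3.32), the end joining mean of replicate 4 was 1.23 (others 2.22 to 2.34) and the nucleotide excision repair mean of replicate 3 was 4.40 (others 4.09 to 4.10).

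Among single members, WT replicate 2 of G-MDSCs had 37.2 CPM of Rbbp8 (others 23.4 to 25.4) and 22 CPM of Xrcc4 (others 12.5 to 13.4). WT replicate 4 of G-MDSCs had 18.3 CPM of Msh6 (others 9.01 to 10.2), and Nlrp3-/- replicate 4 of G-MDSCs 84.7 CPM of Xpc (others 101 to 103). In M-MDSCs, Nlrp3-/- replicate 3 had 15.0 CPM of Xpa (others 22.1 to 22.5), Nlrp3-/- replicate 4 had 3.47 CPM of Blm (others 4.30 to 4.44) and WT replicate 4 had 52.8 CPM of Polb (others 66.5 to 68.7).

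Of the marker lists, WT replicate 2 of M-MDSCs had 1565 CPM of proliferation genes (others 576 to 661) and 8756 CPM of neutrophil markers (others 1454 to 1869). Nlrp3-/- replicate 3 of M-MDSCs had 200.3 CPM of macrophage and dendritic cell markers (others 309 to 326).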

How the results depend on the processing

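Between genotypes, where 8 members were called in each subset, leaving out 1 library gave 5 to 9 calls in M-MDSCs (5 to 7 of them among the 8) and 3 to 7 in G-MDSCs. In those fits 4.44% to 17.6% and 11.5% to 16.2% of all genes were called. The correction for GC content and length gave 5 of 50 tested in M-MDSCs, 4 of them among the 8 and the other Mdm4, and 3 of 49 in G-MDSCs. With it 6.63% and 10.2% of all genes were called. A minimum of 10 counts in every sample gave 4 in G-MDSCs, of 27 tested, and 14 between subsets in WT, of 32 tested, 13 of them among the 25. With that minimum 19.8% and 53.1% of all genes were called. Leaving out 1 library gave 21 to 25 members between subsets in WT, 17 to 20 in Nlrp3-/- mice and 0 in the interaction. Between subsets 48.8% to 52.3% and 46.9% to 49.8% of all genes were then called. Library size alone moved the mean log2 CPM difference over all members in M-MDSCs from −0.33 to −0.22. A sign turned for Mdm2 between subsets in WT (−0.11 with library size only), for Trp53 between subsets in Nlrp3-/- mice (−0.52 with library size only, and without 1 library −0.069 to 0.74, below 0 without M-MDSC replicate 2 or 3) and for Brca1 in the interaction (−0.092 to 1.58, below 0 without WT replicate 2 of M-MDSCs); none of these was called after the turn. The cause was not tested. DESeq2 called 8 and 9 members between genotypes and 25 and 21 between subsets. Of all genes it called 14.3% and 19.2% between genotypes and 54.1% and 52.5% between subsets. Counts per library set the limit for scarce members, since 3 counts are up to 1.17 CPM.

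Between genotypes a replicate number is shared by different mice and does not pair them (correlations of deviations −0.452 to 0.0177 in M-MDSCs and −0.263 to −0.0438 in G-MDSCs). With it as a replicate block 5 members were called in M-MDSCs and 4 in G-MDSCs (all genes 4.26% and 10.6%). With the block and the correction for GC content and length together 0 and 2 were called (all genes 0.721% and 5%). Between subsets, where the block is the mouse, 27 members were called in WT (29 with the correction) and 21 in Nlrp3-/- mice (20 with it), and 0 in the interaction. The block alone called 55.9% and 53.6% of all genes between subsets, and the block with the correction 55.4% and 53.2%. Between genotypes, Xrcc4, Ercc2 and Fancm lost their calls in M-MDSCs with the replicate block (adjusted p of 0.0559 to 0.0856, edgeR). Blm, Lig4, Xpa and Ercc6 lost theirs in G-MDSCs (adjusted p of 0.0679 to 0.112, edgeR). Between subsets the block changed no calls beside those named with it above.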

Other observations

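Some members were too scarce to be tested. Chek1, Rad51c, Fancd2 and Fanci had at most 19 counts in any library and were left out of every comparison. Palb2, the link between Brca1 and Brca2, had 1 to 14 counts per library and entered only the model of all 16 libraries.

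Other genes of repair were higher in Nlrp3-/- cells. Fance, a subunit of the Fanconi core complex, had 7.99, 13.1, 12.8 and 6.85 CPM in WT and 14.3, 25.4, 28.2 and 19.8 CPM in Nlrp3-/- M-MDSCs (log2 fold change 1.09, SE 0.28, adjusted p = 0.0283, edgeR), and was chosen here after its values were seen. In G-MDSCs Alkbh3, which reverses alkylation, and Neil3, a glycosylase, were the other repair genes called higher, at 1.07 (adjusted p = 0.0286, edgeR) and 1.05 (adjusted p = 0.0419). Among p53 targets in G-MDSCs Sesn2, a stress-induced inhibitor of growth signalling, had 33.1, 58.9, 32.5 and 34.6 CPM in WT and 4.16, 0.247, 6.22 and 3.67 CPM in Nlrp3-/- libraries (log2 fold change −3.53, SE 0.48, adjusted p = 0.000269, edgeR). Plk3, a stress-responsive kinase, had the smallest p of the p53 targets between subsets, at 4.48 in WT (adjusted p = 6.76e-08, edgeR) and 5.23 in Nlrp3-/- mice (adjusted p = 7.88e-10).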
